A study of Mus musculus with 10 samples.

Results

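The genes of sterol synthesis and LDL uptake were followed in mouse liver through 28 genes named for their roles, all of them found among the 41388 genes listed. They are 19 enzymes (8 of the mevalonate pathway, 3 that form squalene and lanosterol, and 8 that turn lanosterol into cholesterol), 4 genes of the SREBP-2 sensor, and 5 genes that carry sterols or handle the LDL receptor. The set is not a full list of the pathway. Liver RNA was sequenced from 2 WT Refed, 3 WT Fasting and 5 NAMPT LKO Fasting mice, with 1 library per mouse. The mice were adult C57B/6J littermates of about 12 wk, all carrying Nampt with recombination sites (Nampt fl/fl). In WT mice this gene is intact, and in NAMPT LKO mice it is deleted by Albumin-cre, which acts in hepatocytes and leaves the gene in the other liver cells. By the labels the fasting mice went without food for 24 h, and the refed mice had a fast of 22 h with 2 h of food after it. The study's text gives a shorter fast and calls the control mice random-fed, and no refed NAMPT LKO group was analysed here.

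Cholesterol is built from acetyl-CoA through mevalonate, the isoprenoids, squalene and lanosterol. The genes for these enzymes share a regulator, SREBP-2, a transcription factor held in the membrane of the endoplasmic reticulum. Its escort Scap carries it to the Golgi for cleavage when membrane sterol is low, and the Insig proteins hold the pair back when sterol is plentiful. Liver is a main site of this synthesis and of LDL uptake, and hepatic sterol synthesis is known to be low in fasting and to return with food.

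Library totals were 30603080 to 43434139 counts. All 28 genes were above 1 CPM (counts scaled to the library total) in at least 1 library and were tested, and the lowest count of any of them in any library was 78, for Mvd. Levels below are CPM after TMM normalization, which scales libraries to each other. The test was edgeR's quasi-likelihood test over 13444 genes in one fit of all 10 libraries, and a gene was called where its Benjamini-Hochberg adjusted p was at or under 0.05. Hepatocyte markers were high in every library (8 markers, summed level 68700 to 104000 CPM). The 5 pancreatic acinar markers summed to at most 0.316 CPM in any library, and 2 of them, Cpa1 and Prss2, were at 0 throughout. The 6 cholangiocyte markers summed to 20.7 to 23.2 CPM in WT Refed, 15.3 to 21.2 CPM in WT Fasting and 35.0 to 51.2 CPM in NAMPT LKO livers; their part in the results was not tested. Nampt itself was 67.8 and 78.0 CPM in WT Refed, 63.0 to 141 CPM in WT Fasting and 11.8 to 15.3 CPM in NAMPT LKO livers, so the labels and the targeted gene match. NAMPT LKO mouse 5 stood apart from the other libraries. Its genes lay a median of 0.312 log2 units from their medians over all 10 libraries, against 0.0975 to 0.199 in the other 9. The 2 WT Refed livers, at 0.181 and 0.199, also differ from the rest in feeding. In mouse 5 these deviations followed GC content (Spearman rho -0.575 across genes). Results that rest on mouse 5 are given with and without it.

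Levels of 4 sterol enzymes and Stard4 were lower in WT Fasting than in WT Refed livers, and those of Insig2, Npc1 and Mylip were higher. All mice had been fasted, and no unfasted group was analysed here. A change made by fasting and a response to the 2 h of food therefore cannot be told apart. Below, a gene that fell or rose was lower or higher in fasting than in refed livers. Of the 28 genes, 8 were called between WT Fasting and WT Refed livers (28.6%), 5 lower and 3 higher, where 7.04% of all genes tested were called (4.36% lower and 2.68% higher). The genes that fell were Mvd, Fdps, Mvk, Lss and Stard4. The median log2 fold change of the 28 genes was -0.43, beside 0.037 for all genes tested, and 21 of the 28 had a negative sign. The groups did not overlap for 23 of the 28, 18 lower and 5 higher in fasting, where 49.7% of all genes did not overlap between these 3 and 2 livers. The calls rested on both refed libraries: with either left out, fewer of the 28 genes were called, and fewer of all genes tested as well. Such a fit leaves 1 refed library, so only fold changes are given. With each library left out in turn, the log2 fold change ran from -3.56 to -2.89 for Mvd and from 1.61 to 1.91 for Insig2. With NAMPT LKO mouse 5 out of the fit, which then estimated a different spread, 15 of the 28 genes were called. Hmgcs1, Idi1, Fdft1, Sqle, Cyp51, Msmo1 and Dhcr7, all lower, were added to the 8. The same fit called 2231 of all genes tested in place of 946, so the gain was not particular to the 28.

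**Figure D1:**
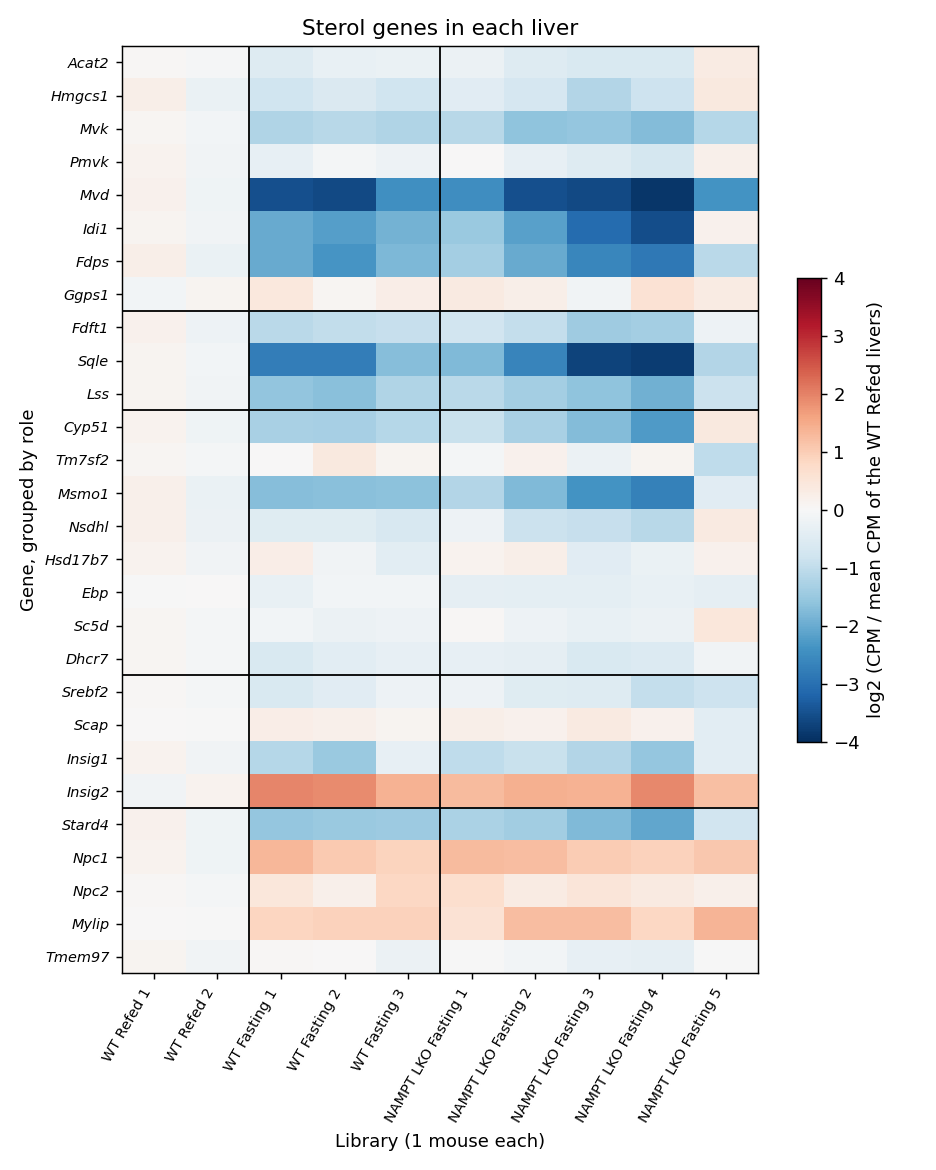
Each row is 1 of the 28 genes, grouped by role from the mevalonate enzymes at the top to sterol transport at the bottom, and each column is 1 liver. Colour gives log2 of the level over the mean of the 2 WT Refed livers; most enzyme rows are blue in the WT Fasting and NAMPT LKO columns, Mvd the darkest, the Insig2 row is red, and several enzyme rows turn pale or red in NAMPT LKO mouse 5.

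Among the 8 mevalonate enzymes, Mvk, Mvd and Fdps fell and the other 5 were not called. Mvd, the decarboxylase that makes isopentenyl diphosphate (chr8:122433596-122443422 of GRCm38, minus strand), was 35.3 and 27.7 CPM in the WT Refed livers. It was 2.75, 2.60 and 5.71 CPM in the WT Fasting livers and 5.58, 2.76, 2.58, 2.12 and 6.03 CPM in the NAMPT LKO livers. Every fasting liver of either genotype lay far below both refed livers, and Mvd had the largest fall of the 28 genes. Its log2 fold change was -3.09 in WT Fasting vs. WT Refed livers (standard error 0.47, edgeR adjusted p = 0.00402), an 8.49-fold lower level. This call held in all 19 alternatives of the processing that were run.

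Mvk, mevalonate kinase (chr5:114444269-114460591, plus strand), acts earlier in the same stretch. It was 24.0 and 21.0 CPM in WT Refed, 9.87, 10.4 and 9.79 CPM in WT Fasting, and 10.5, 7.44, 7.71, 6.79 and 10.2 CPM in NAMPT LKO livers. The 3 WT Fasting livers were close to each other and well below both refed livers. The log2 fold change of WT Fasting vs. WT Refed was -1.17 (standard error 0.19, edgeR adjusted p = 0.00602).

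Fdps, which makes farnesyl diphosphate (chr3:89093592-89101967, minus strand), was 119 and 83.2 CPM in WT Refed and 25.2, 19.7 and 29.0 CPM in WT Fasting livers. In NAMPT LKO livers it was 39.7, 25.1, 16.7, 14.0 and 47.8 CPM. No fasting liver of either genotype reached the refed livers. The log2 fold change of WT Fasting vs. WT Refed was -2.03 (standard error 0.45, edgeR adjusted p = 0.0207), and the call was lost without either WT Refed liver and without WT Fasting mouse 1 or 2.

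Idi1, the isomerase between Mvd and Fdps, had the same log2 fold change as Fdps, -2.03, but a standard error of 0.82, and was not called (edgeR adjusted p = 0.174). Its values were 50.6 and 42.5 CPM in WT Refed, 11.5, 10.1 and 12.6 CPM in WT Fasting, and 16.6, 10.4, 5.56, 4.02 and 52.2 CPM in NAMPT LKO livers. NAMPT LKO mouse 5 was the one fasting liver above both refed livers. With the trend with GC content removed, Idi1 in this liver was 41.6 CPM, below the 51.5 and 43.8 CPM of the refed livers. Without mouse 5, the fold change of WT Fasting vs. WT Refed was called. The remaining mevalonate enzymes were Hmgcs1, which makes HMG-CoA (log2 fold change -0.73), the thiolase Acat2 (-0.36), phosphomevalonate kinase Pmvk (-0.21) and Ggps1 (0.27), which makes geranylgeranyl diphosphate for protein prenylation. Ggps1 was the least abundant of the 28 genes in refed liver, at 1.30 ± 0.142 CPM per kb of exon (SD, n = 2).

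**Figure D2:**
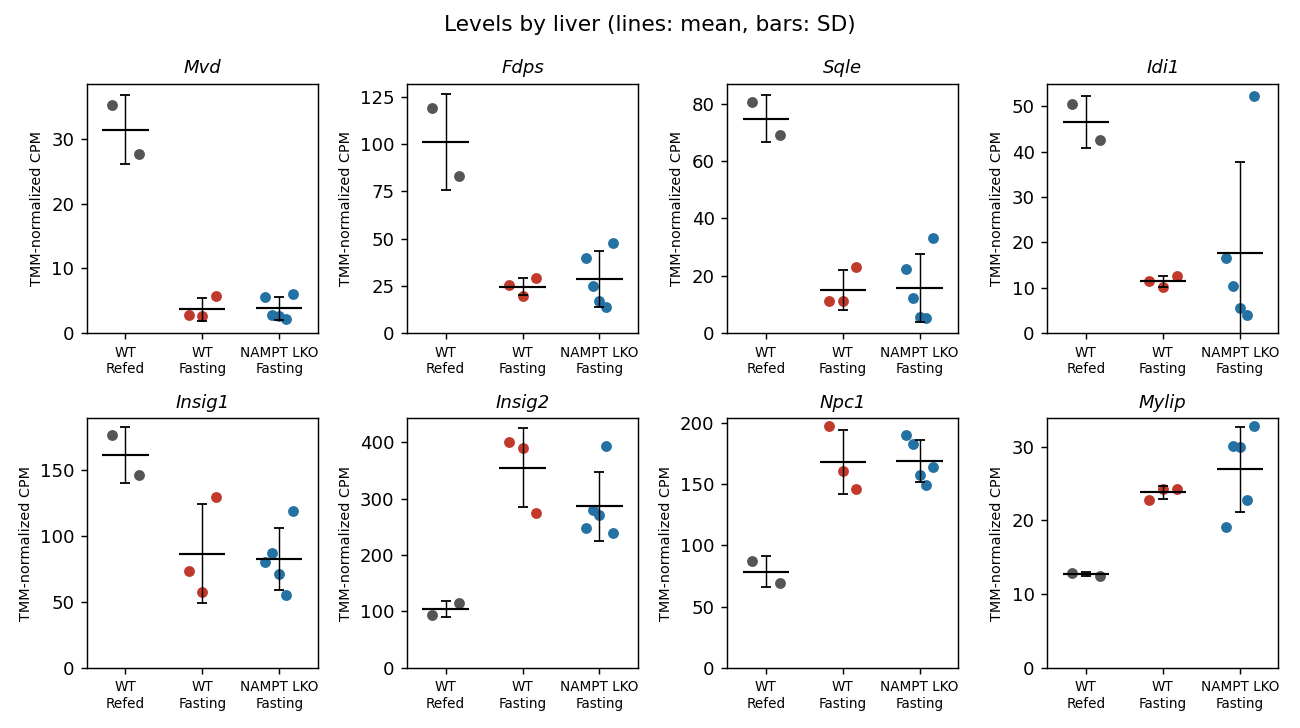
Points are livers, lines are group means and bars are SD, on TMM-normalized CPM axes that start at 0 for 8 of the genes (the lower bar of Idi1 in NAMPT LKO is cut at 0). Mvd, Fdps and Sqle are high only in the 2 WT Refed livers, Insig2, Npc1 and Mylip are low only there, and 1 NAMPT LKO liver holds Idi1 at 52.2 CPM.

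The 3 genes that join farnesyl units into squalene and close the ring all had negative fold changes, and Lss was called. Lss, lanosterol synthase (chr10:76531588-76557138, plus strand), was 44.1 and 36.9 CPM in WT Refed, 13.7, 12.6 and 17.7 CPM in WT Fasting, and 19.1, 15.8, 13.4, 10.8 and 22.2 CPM in NAMPT LKO livers. All 8 fasting livers lay below both refed livers. The log2 fold change of WT Fasting vs. WT Refed was -1.46 (standard error 0.26, edgeR adjusted p = 0.00922). Sqle, squalene epoxidase (chr15:59315077-59331192, plus strand), was 80.6 and 68.9 CPM in WT Refed and 11.1, 11.0 and 23.0 CPM in WT Fasting livers. In NAMPT LKO livers it ranged from 5.35 to 33.2 CPM (22.2, 12.1, 5.75, 5.35 and 33.2 CPM). The groups were as clearly apart as for Lss, but the spread was wider, and Sqle missed the threshold in WT Fasting vs. WT Refed (log2 fold change -2.31, standard error 0.67, edgeR adjusted p = 0.0641). It passed in 9 of the 19 alternatives. Fdft1, squalene synthase, had a log2 fold change of -1.0 (edgeR adjusted p = 0.0711). Its exons share 26.8% of their bases with those of Ctsb on the other strand, so its counts are uncertain where counting ignored strand.

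None of the 8 enzymes after lanosterol was called between WT Fasting and WT Refed livers, where 7.04% of all genes tested were called. For a list of 8 genes, 0 calls is near that share. In 6 of the 8 the WT Fasting livers were all below both refed livers, where 49.7% of all genes did not overlap in either direction. Cyp51, Msmo1 and Dhcr7 were called with NAMPT LKO mouse 5 out of the fit, as given above. Msmo1, a sterol C4 methyl oxidase, had a log2 fold change of -1.67 (95% interval -2.79 to -0.54, edgeR adjusted p = 0.0777), and Cyp51, the lanosterol demethylase, one of -1.25 (95% interval -2.52 to 0.03). Msmo1 was 137 and 98.9 CPM in WT Refed and 36.4, 37.2 and 38.0 CPM in WT Fasting livers, groups that were well apart. In NAMPT LKO livers it was 51.9, 34.8, 22.5, 18.1 and 86.0 CPM, all below both refed livers. The last enzyme, Dhcr7, was at -0.45 (95% interval -0.78 to -0.12). Nsdhl, Ebp, Sc5d, Hsd17b7 and Tm7sf2, which act in the steps between, had fold changes of -0.54 to 0.18. Of these late enzymes, Sc5d and Ebp were among the most abundant of the 28 genes per length: Sc5d, the lathosterol desaturase, was the highest of the 28 genes in WT Refed liver at 83.2 ± 5.63 CPM per kb (SD, n = 2), with Fdps next at 81.5 ± 20.4 and Ebp, the sterol isomerase, after it at 66.7 ± 0.914. The difference between Sc5d and Fdps was within their spread. In WT Fasting livers Fdps was ninth of the 28, at 19.9 ± 3.77 CPM per kb (SD, n = 3), while Sc5d was 73.1 ± 2.87.

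**Figure D3:**
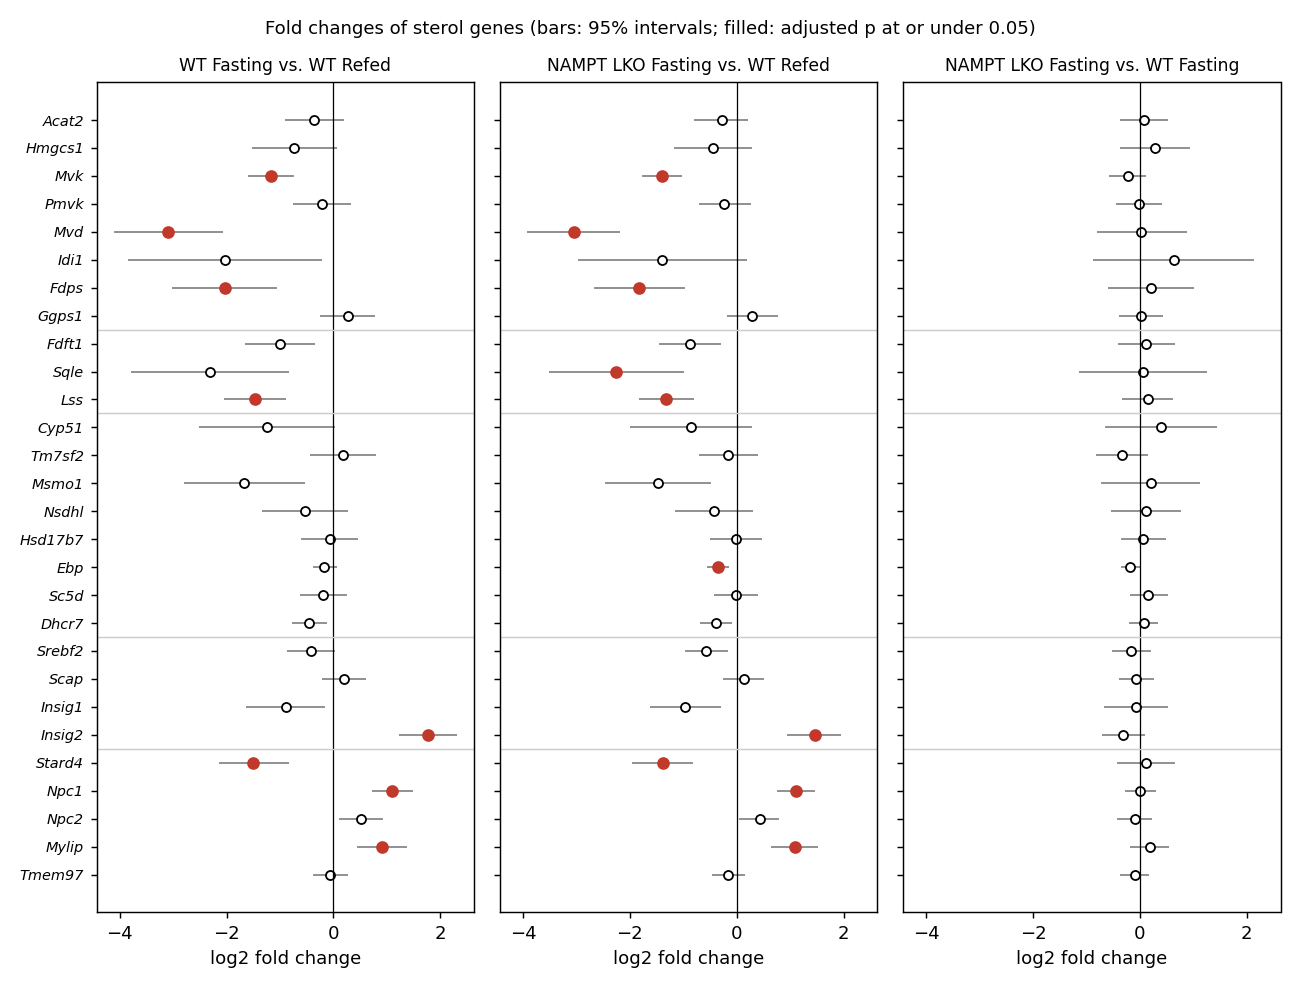
Points are log2 fold changes of the 28 genes in the 3 comparisons, bars are 95% intervals, and filled points are called at an adjusted p at or under 0.05. The left and middle panels hold 8 and 10 filled points, Mvd farthest to the left and Insig2 farthest to the right, and the right panel, NAMPT LKO vs. WT in fasting, holds 0, with points from -0.34 to 0.63.

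Of the 4 genes of the SREBP-2 sensor, Insig2 was called, and it rose. Insig2, on chr1:121304353-121332589 (minus strand), was 93.8 and 115 CPM in WT Refed and 401, 391 and 274 CPM in WT Fasting livers. It was 249, 281, 271, 393 and 240 CPM in NAMPT LKO livers, so that every fasting liver was above both refed livers. The log2 fold change of WT Fasting vs. WT Refed was 1.77 (standard error 0.25, edgeR adjusted p = 0.00274), 3.40-fold higher and the largest rise of the 28 genes, and the call held in all 19 alternatives. In rodent liver Insig2 is known for a transcript that insulin lowers. Insig1, its paralog on chr5:28071363-28078662 and itself a target of SREBP-2, had values of 176 and 146 CPM in WT Refed, 73.1, 57.2 and 129 CPM in WT Fasting, and 80.4, 87.0, 71.0, 55.2 and 119 CPM in NAMPT LKO livers. All were below the refed livers, but WT Fasting mouse 3 and NAMPT LKO mouse 5 were nearest to them, and the log2 fold change of -0.89 (standard error 0.34) was not called (edgeR adjusted p = 0.148).

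Insig1 and Insig2 do the same work in the membrane, so their levels were set against each other per kb of exon. The log2 ratio of Insig2 to Insig1 was -1.27 and -0.70 in the WT Refed livers, where Insig1 was the more abundant. It was 2.09, 2.41 and 0.72 in WT Fasting and 1.27, 1.33, 1.57, 2.47 and 0.65 in NAMPT LKO livers. In all 8 fasting livers Insig2 was the more abundant, by 1.57-fold to 5.54-fold. Insig2 was eighth of the 28 genes per length in WT Refed liver (30.1 ± 4.41 CPM per kb, SD, n = 2) and first in both fasting groups (102 ± 20.4 in WT, n = 3, and 82.6 ± 17.7 in NAMPT LKO, n = 5).

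Srebf2, the gene for SREBP-2, was 75.9 and 69.6 CPM in WT Refed, 48.0, 52.6 and 62.9 CPM in WT Fasting, and 63.2, 51.9, 50.8, 37.9 and 40.7 CPM in NAMPT LKO livers. All 8 fasting livers were below the 2 refed livers, the nearest at 63.2 CPM and the farthest at 37.9 CPM. The log2 fold change of -0.42 in WT Fasting vs. WT Refed was not called (standard error 0.20, edgeR adjusted p = 0.253). Scap was at 0.19 (standard error 0.19), with 100 and 102 CPM in refed and 110 to 121 CPM in WT Fasting livers.

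Of the 5 genes of sterol transport and LDL receptor handling, 3 were called, in opposite directions. Stard4, a soluble carrier of cholesterol between membranes, was 97.7 and 77.0 CPM in WT Refed, 30.0, 31.2 and 31.8 CPM in WT Fasting, and 36.0, 33.3, 25.8, 20.6 and 51.9 CPM in NAMPT LKO livers. Every fasting liver was below both refed livers, as for Lss (log2 fold change -1.50, standard error 0.30, edgeR adjusted p = 0.0138). Npc1, which exports LDL cholesterol from lysosomes, was 87.2 and 69.3 CPM in WT Refed, 197, 161 and 146 CPM in WT Fasting, and 190, 183, 157, 149 and 164 CPM in NAMPT LKO livers. All fasting livers lay above both refed livers (log2 fold change of WT Fasting vs. WT Refed 1.10, standard error 0.17, edgeR adjusted p = 0.00454). Npc2, the lysosomal protein that hands cholesterol to Npc1, had a positive log2 fold change of 0.52 that was not called (edgeR adjusted p = 0.122).

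Mylip, the ubiquitin ligase that marks the LDL receptor for degradation and is a target of the oxysterol receptors (chr13:45389742-45412019, plus strand), was 12.9 and 12.5 CPM in WT Refed and 22.8, 24.3 and 24.3 CPM in WT Fasting livers. It was 19.1, 30.1, 30.0, 22.7 and 32.8 CPM in NAMPT LKO livers. The refed livers were the 2 lowest of the 10 (log2 fold change of WT Fasting vs. WT Refed 0.91, standard error 0.21, edgeR adjusted p = 0.0271). This call was lost when any 1 of the 5 WT libraries was left out. Tmem97, a membrane protein that binds Npc1, was at -0.06 (standard error 0.15). In bulk liver, fewer cells of a type and less RNA per cell cannot be told apart, for these genes and the others.

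Promoter sequence was looked at for what the genes share beyond their role. RefSeq windows on GRCm38.p6, of 250 bases before and 50 after each start site, were at hand for 23 of the 28 genes; Fdps, Fdft1, Sqle, Stard4 and Npc1 had none. On either strand, CCAAT, the box bound by NF-Y, was in a window of 21 of the 23 genes (91.3%) and of 42.7% of all tested genes with a window. GGGCGG, an Sp1 box, was also in 21 (91.3%), against 66.8% of tested genes. CACGTG, an E-box, was in 5 (21.7% against 11.7%). TCACNCCAC, the core of one form of the sterol regulatory element, was in 1, Hmgcs1, starting 137 bases before the start site (4.35% against 1.49%). Motifs were searched one by one, matches may overlap, and a match is a run of letters and not a shown binding site. The 250 bases before the start are printed for Hmgcs1, the single match to the sterol element, for the called enzymes Mvd and Mvk, and for the paralogs Insig1 and Insig2, whose ratio is given above. Capitals mark CCAAT on either strand and, in Hmgcs1, the sterol element.
Hmgcs1 (chr13:119690101-119690350, plus strand): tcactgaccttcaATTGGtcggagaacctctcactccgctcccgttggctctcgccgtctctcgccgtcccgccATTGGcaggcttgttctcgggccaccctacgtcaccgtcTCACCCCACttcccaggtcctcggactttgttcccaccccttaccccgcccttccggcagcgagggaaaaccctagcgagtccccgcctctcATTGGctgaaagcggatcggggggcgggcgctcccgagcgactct
Mvd (chr8:122443423-122443672, minus strand): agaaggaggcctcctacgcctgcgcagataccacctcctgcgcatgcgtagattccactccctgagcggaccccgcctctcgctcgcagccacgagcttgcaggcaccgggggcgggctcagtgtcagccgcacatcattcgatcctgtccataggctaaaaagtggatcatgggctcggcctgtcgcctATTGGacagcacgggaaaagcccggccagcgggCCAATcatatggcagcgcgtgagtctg
Mvk (chr5:114444019-114444268, plus strand): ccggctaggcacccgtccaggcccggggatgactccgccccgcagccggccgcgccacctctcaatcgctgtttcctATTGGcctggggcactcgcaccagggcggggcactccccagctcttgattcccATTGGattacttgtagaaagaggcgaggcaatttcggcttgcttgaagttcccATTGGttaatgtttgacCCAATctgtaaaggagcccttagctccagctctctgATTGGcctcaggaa
Insig1 (chr5:28071162-28071411, plus strand): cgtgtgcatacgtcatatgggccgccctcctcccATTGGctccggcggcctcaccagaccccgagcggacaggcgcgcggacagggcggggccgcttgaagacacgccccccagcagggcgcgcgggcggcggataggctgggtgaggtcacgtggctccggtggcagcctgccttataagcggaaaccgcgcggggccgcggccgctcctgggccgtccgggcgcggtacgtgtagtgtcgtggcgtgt
Insig2, most upstream start (chr1:121332590-121332839, minus strand): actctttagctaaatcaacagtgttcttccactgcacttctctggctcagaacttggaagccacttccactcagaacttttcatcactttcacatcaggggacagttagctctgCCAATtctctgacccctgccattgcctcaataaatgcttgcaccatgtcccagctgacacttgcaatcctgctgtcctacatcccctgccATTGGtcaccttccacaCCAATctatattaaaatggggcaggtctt
Mvk held 5 CCAAT boxes in this stretch and Mvd 2. Insig1 held 1, with 3 Sp1 boxes and a GC content of 72.8%. Insig2 had 3 windows: the most upstream, printed here, held 3 CCAAT boxes and 0 Sp1 boxes at a GC content of 47.2%, and each of the other 2 windows held 0 CCAAT boxes and 1 Sp1 box. Counts are per gene, so they do not show which start the Insig2 reads came from.

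The fasting NAMPT LKO livers were then compared with the fasting WT livers, which asks whether the fasting levels of these genes differ without hepatocyte Nampt. None of the 28 genes was called by edgeR's quasi-likelihood test, where 0.00744% of all genes tested were called, which is Nampt alone. By edgeR's exact test, DESeq2 and limma's voomWithQualityWeights the number of the 28 called was also 0. At an unadjusted p under 0.05 there was 1, Ebp, where 6.03% of all genes passed. Fold changes ran from -0.34 (Tm7sf2) to 0.63 (Idi1), with a median of 0.06 beside 0.00025 for all genes. Exons of Tm7sf2 share 15.3% of their bases with those of Vps51 on the same strand, so its counts are uncertain. The fold changes turned on NAMPT LKO mouse 5. Without it the median was -0.12 and the range -0.42 (Sqle) to 0.10 (Mylip), the fold change of Idi1 was -0.33 and that of Tm7sf2 -0.18, and 13 of the 28 genes changed sign. None was called without it either, the lowest adjusted p being 0.59 in edgeR's quasi-likelihood test, for Ebp. Ebp was 127, 143 and 142 CPM in WT Fasting and 121, 119, 119, 126 and 121 CPM in NAMPT LKO livers, against 153 and 156 CPM in the refed livers. All 5 NAMPT LKO livers were just below the lowest WT Fasting liver (log2 fold change -0.18, standard error 0.08, edgeR adjusted p = 0.827). Such separation was found for 3.99% of all genes.

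The intervals say how large a difference could have been missed. For Npc1 the difference between genotypes was 0.01 (95% interval -0.28 to 0.30), and for Dhcr7 0.07 (-0.20 to 0.34). For Insig2 it was -0.31 (-0.71 to 0.09), with 2 of the 5 NAMPT LKO livers inside the WT range of 274 to 401 CPM and 3 below it at 240 to 271 CPM. For the enzymes with the largest spread between livers, and for Mvd, it was much wider: Mvd 0.03 (-0.81 to 0.88), Sqle 0.06 (-1.14 to 1.26) and Idi1 0.63 (-0.87 to 2.14). Without mouse 5 they were -0.20 (-1.02 to 0.62), -0.42 (-1.47 to 0.63) and -0.33 (-1.20 to 0.55). With all libraries, a 2-fold difference either way in Sqle lay within its interval.

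The 5 NAMPT LKO livers were spread widely among themselves. Mouse 5 was the highest of the 5 for 14 of the 19 enzymes, where it was highest for 34.2% of all genes. Mouse 4 was the lowest for 10 of the 19 and mouse 3 for 8, where they were lowest for 18.1% and 16.4% of all genes. Cyp51 ran from 25.8 CPM in mouse 4 to 161 CPM in mouse 5, Hmgcs1 from 81.6 to 242 CPM in mice 3 and 5, and Msmo1 from 18.1 to 86.0 CPM in mice 4 and 5. In mouse 3, 19 of the 19 enzymes were below both refed livers, while in mouse 5, 10 were below and 9 above both. The 9 were Acat2, Hmgcs1, Pmvk, Idi1, Ggps1, Cyp51, Nsdhl, Hsd17b7 and Sc5d. The median log2 ratio of the enzymes to the refed mean was -1.18, -1.10 and -0.14 in mice 3, 4 and 5, and -0.46 and -0.85 in mice 1 and 2. The WT Fasting livers were at -0.80, -0.59 and -0.80.

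After the GC trend of every library was taken out, mouse 5 was still highest for 15 of the 19 enzymes (29.6% of all genes), and its median ratio was -0.13. The number of its enzymes above both refed livers was then 4 in place of 9. Mvd, Fdps and Lss stayed below both refed livers in mouse 5 as in every other fasting liver. The part of GC content in the position of mouse 5 was not tested beyond this.

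**Figure D4:**
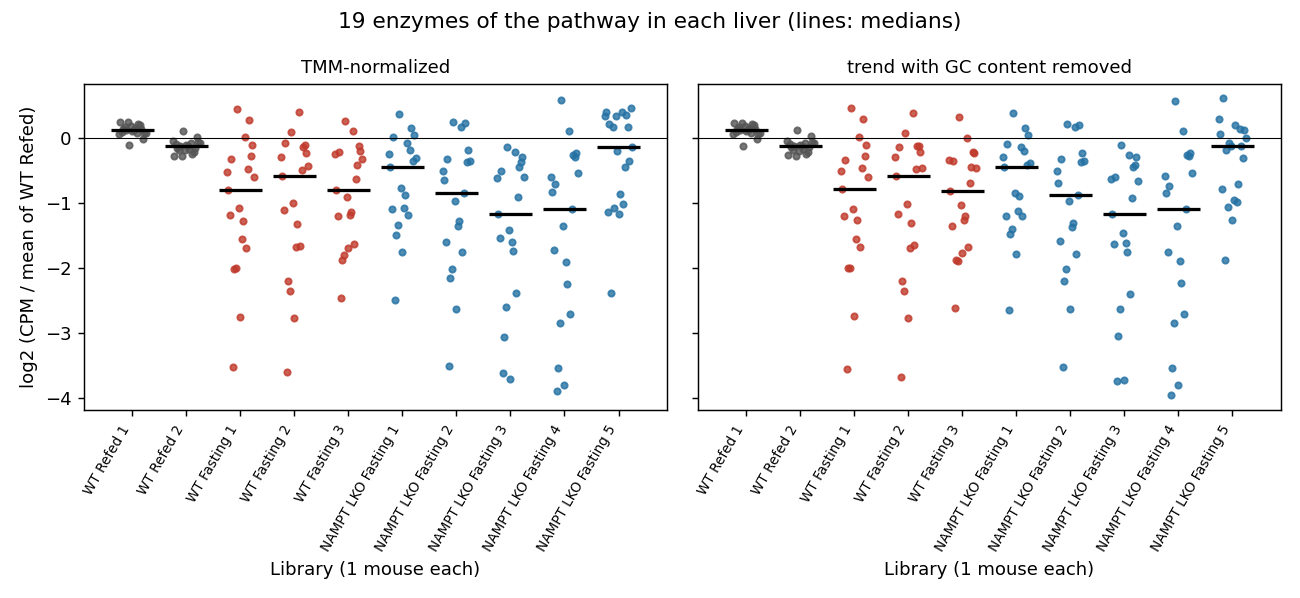
Each point is 1 of the 19 enzymes in 1 liver, as log2 of its level over the WT Refed mean, and lines are medians over the enzymes, as normalized (left) and after the GC trend of every library was taken out (right). The NAMPT LKO medians run from -1.18 in mouse 3 to -0.14 in mouse 5 on the left, a wider range than the 3 WT Fasting medians of -0.80 to -0.59.

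NAMPT LKO Fasting vs. WT Refed livers share their refed controls with the first comparison, so their values are set side by side and not counted as a repeat. Of the 28 genes, 10 were called (35.7%), 7 lower and 3 higher, where 11.2% of all genes were called (6.58% lower and 4.65% higher). They were the 8 called in WT, with Sqle and Ebp added. The log2 fold changes were -3.05 for Mvd (-3.09 in WT), -1.4 for Mvk (-1.17), -1.82 for Fdps (-2.03), -1.32 for Lss (-1.46) and -1.38 for Stard4 (-1.50). Those that rose were Insig2 at 1.46 (1.77 in WT), Npc1 at 1.11 (1.10) and Mylip at 1.09 (0.91). Sqle was at -2.25 (standard error 0.58, edgeR adjusted p = 0.031) and Ebp at -0.35 (standard error 0.09, edgeR adjusted p = 0.0359). The Ebp call was lost in 9 of 19 alternatives. Insig1 (-0.96, edgeR adjusted p = 0.0655) and Srebf2 (-0.57, edgeR adjusted p = 0.0683) were just outside the threshold. These calls also rested on both refed libraries, with fewer of the 28 genes called when either was left out. Without NAMPT LKO mouse 5 the calls were 19, of which 16 were lower. Over all genes the calls also moved when libraries were left out, as given at the end, so these shifts are not read as particular to the 28.

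Other genes of sterol metabolism, 48 in all and all tested, were listed by function. Between WT Fasting and WT Refed livers 9 were called (18.8%, against 7.04% of all genes tested), 3 higher and 6 lower. In NAMPT LKO vs. WT Fasting livers 0 were called, with 1 at an unadjusted p under 0.05 in edgeR's quasi-likelihood test, where 6.03% of all genes passed. Genes that fell in WT were Aacs, which feeds acetoacetate into sterol synthesis (log2 fold change -1.77), Cyp7b1, an oxysterol hydroxylase (-1.24), Erlin1, of the machinery that degrades sterol enzymes and sensors (-1.06), Osbp, an oxysterol-binding lipid carrier (-0.80), and Nus1 and Dhdds, which together make dolichol (-0.66 and -0.65). Those that rose were Abcg8, which exports sterols into bile (1.45), Por, the electron donor of the P450 enzymes (0.77), and Soat2, which esterifies cholesterol (0.70). The 48 genes had a median of 0.03, near that of all genes. In NAMPT LKO Fasting vs. WT Refed livers 11 were called (22.9%, against 11.2% of all genes), 3 higher and 8 lower, among them Aacs (-2.26), Nr1h3, an oxysterol receptor (-0.60), and Abcg8 (1.4). Cyp7a1, the rate-limiting enzyme of bile acid synthesis, was at -0.30 in WT Fasting vs. WT Refed livers with a standard error of 0.71.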

How the data were processed

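The authors selected polyadenylated liver RNA, sequenced single reads, aligned them to GRCm38 with STAR (2.5.1a by the submitters' processing notes) and deposited, per Ensembl gene, the count of uniquely aligned reads from featureCounts (1.4.6-p5). Use of strand is not given in the sources used here. By definition CPM is the count over the library total and RPKM is CPM per kb of exon, so the deposited CPM and RPKM were not tested separately. Symbols were found for 40254 of 41388 genes.

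A gene was kept if any library had it above 1 CPM; 4 rRNA genes were dropped. The test, after TMM normalization, was that of edgeR 4.0.16 in R 4.3.3 (quasi-likelihood test, legacy default, Benjamini-Hochberg over 13444 genes). Scripts were tested on simulated data. Tried beside it were DESeq2 1.42.0, the exact test of edgeR, limma 3.58.1 (voomWithQualityWeights), other filters, normalizations and thresholds, removal of the GC trend (loess span 0.5), leaving out each library, and blocking by replicate number. No libraries held identical counts. Each library is 1 mouse; where nothing else is said of their origin, p-values measure the spread between these mice.

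The genes and lists were chosen with earlier results of these data known. Values in every liver are given for genes called in any comparison, for Insig1, Insig2 and Srebf2 and for the lowest p between genotypes; Idi1 and Msmo1 were added after their values were seen. WT Refed mice are numbered in accession order.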

Additional observations from a re-analysis of the deposited data

Results flagged for a closer look

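Scap, the escort of SREBP-2, was low in 1 liver. In NAMPT LKO mouse 5 it was 75.0 CPM, against 114 to 130 CPM in the other 4 NAMPT LKO livers, and the gap to the nearest was 0.752 of the group's range, over the limit of 0.71 for 5 samples. This was the single value past the limit among 29 compared (the 28 genes and the Insig2 to Insig1 ratio), where chance gives about 1.45. With the trend with GC content removed, Scap in this liver was 108 CPM and the largest gap was 0.409, in NAMPT LKO mouse 3. Exons of Scap share 18.9% of their bases with a gene on the other strand. The part of GC content or of that gene in the low value was not tested.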

How the results depend on the processing

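Calls against the refed group rest on 2 libraries; with 1 left out, the other was assumed to vary like the other groups. For WT Fasting vs. WT Refed livers, the main 8 calls among the 28 genes became 19 with voomWithQualityWeights, 15 with the compared groups alone, 15 at an unadjusted p under 0.05, and 2 to 15 with each library left out. Over all genes the 946 calls became 3331 (voomWithQualityWeights), 1646 (DESeq2), 1649 (compared groups alone), 1434 (GC trend removed), 397 (2-fold change also asked for), 3002 (unadjusted) and 107 to 2231 (libraries left out). For NAMPT LKO Fasting vs. WT Refed livers, 10 calls among the 28 became 21 (voomWithQualityWeights), 16 (unadjusted) and 3 to 19 (libraries left out), and 1510 over all genes became 4281, 3507 and 227 to 2835, and 491 where a 2-fold change was also asked for. Scaled by library totals without TMM, 252 of 979 calls in WT were higher in place of 360 of 946, and 371 of 1422 in place of 625 of 1510 in NAMPT LKO against refed livers. The median of the 28 genes kept its sign in both comparisons with the refed group under every alternative run. The causes of these shifts were not tested.

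Between genotypes, 0 of the 28 genes were called under any alternative with an adjusted p, and 1 at an unadjusted p. Over all genes the single call became 24 (edgeR's exact test), 24 (DESeq2), 2 (library size), 17 (at least 1 count), 3 (filterByExpr), 3 (GC trend removed), 811 (unadjusted) and 1 to 2 (libraries left out). Replicate numbers name different mice, and the pairing by number was not used. Deviations of same-numbered livers correlated at 0.081, 0.164 and 0.103, and those of differently numbered livers at -0.117 to -0.020. Each deviation was taken from the mean of the 3 livers of its group. Values above 0 for same-numbered livers therefore push the others below 0, and the difference in sign is partly built in. Whether the numbers mark a shared batch was not tested. With the replicate block over libraries numbered 1 to 3 there were 0 calls, and 0 in the same libraries without the block. Fold changes near 0 changed sign, none of them called. Mvd was -0.03 (voomWithQualityWeights), -0.02 (library size), -0.02 (replicate block), -0.03 (same libraries, no block) and -0.20 to 0.50 (libraries left out). Sqle was -0.36, -0.03, -0.25, -0.18 and -0.42 to 0.50 in that order. Srebf2 was 0.02 with the block and 0.02 without it. With voomWithQualityWeights Fdps was -0.02, Insig1 0.11 and Stard4 -0.08, and with libraries left out they ran from -0.05 to 0.39, -0.30 to 0.34 and -0.10 to 0.24. Npc1 was -0.02 (library size), -0.01 (at least 1 count), -0.04 (GC trend removed) and -0.08 to 0.14 (libraries left out).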
